A study of Arabidopsis thaliana with 60 samples.

Results

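XTH18 (AT4G30280), XTH19 (AT4G30290) and XTH32 (AT2G36870) encode 3 xyloglucan endotransglucosylase/hydrolases of Arabidopsis thaliana. They were taken as the probe sets annotated to a single gene with these symbols, which gave 1 probe set for each gene, 3 of the 22810 on the array. Their signal was followed through 60 arrays of leaf RNA in 20 groups of 3. Of the probe sets on the array, 15808 were bright enough in at least 1 group to be tested, and all 3 genes were among them, each by way of the groups in which it was bright.

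Unless stated otherwise, the plants were Col-0 and stood on soil at 23 °C under continuous light. Senescing leaves and cauline leaves, which grow on the flowering stem, made up 2 groups. The rosette was sampled as leaves 2, 4, 6, 8, 10 and 12 when leaf 12 was about 1 cm long. A line labelled gl1T gave leaf 12 and leaf 4 at 1 cm, with Col-0 leaf 12 and Col-0 leaf 4 at 1 cm as partners. Labels of these 1 cm Col-0 samples note contamination by soil. The labels describe gl1T no further, apart from a Col-0 background for its leaf 12. No length is labelled for gl1T leaf 12, so a match in size to Col-0 leaf 12 cannot be checked. Leaf 7 was divided into petiole, distal blade and proximal blade. Sucrose-medium leaves grew on MS medium with 1% sucrose in long days at 22 °C, and their leaf position is not labelled. Leaves 1 and 2 and the cotyledons, or seed leaves, came from the standard soil conditions. Vegetative rosettes labelled as sets 87, 89 and 90 grew in short days of 10 h light and 14 h darkness at 22 °C, on soil as far as labelled, which leaves out set 90. No label gives an age or says that replicate arrays hold different plants. The p-values therefore describe the spread among the arrays, and that spread may be technical.

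Xyloglucan is the hemicellulose that coats and links cellulose microfibrils in the primary wall of growing leaf cells. XTH enzymes cut xyloglucan chains and either join the new end to another chain or release it to water, and they are known for their part in wall loosening, wall strengthening and cell expansion. XTH18 and XTH19 belong to the large branch of the family that acts as transglucosylases and have been studied mainly in roots, whereas XTH32 sits in a small branch whose studied members act mainly as hydrolases. In the RefSeq TAIR10.1 annotation XTH18 and XTH19 are neighbours on chromosome 4 with 0 protein-coding genes between them, and XTH24 lies on the other side of XTH18. XTH32 is on chromosome 2. Because XTH18 and XTH19 are close paralogs, RNA of either gene could bind to the probes of the other. The probe sequences were not used here, and the unequal changes of both probe sets are given below.

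Values are MAS5 signal, an intensity per probe set on a linear scale, in arbitrary units. Median signal per array lay between 32.2 and 40.03, and r between arrays within a group lay between 0.982 and 0.990. The actin control ratio, 3' probes over 5' probes, ran from 1.76 to 14.4 and differed between groups. It was 1.88 to 2.93 in cotyledons, for example, and 8.77 to 11.7 in senescing leaves. The part of RNA quality in the XTH values was not tested. The 40th percentile of an array, about 20 units, served as a mark for dim values. Differences are on the scale of log2(signal + 6.139) with their standard errors from limma, and a gene rose or fell where it reached a size of 1 with a Benjamini-Hochberg adjusted p under 0.05. On this scale the differences of dim genes are understated. The RNA was that of whole organs, so fewer cells that express a gene and less RNA per cell cannot be told apart. The 6 measured mesophyll genes, such as the Rubisco activase RCA, summed to between 16055 and 28955 units on arrays of every group other than the senescing leaves, where they summed to between 6384 and 6711 units. The root hair expansins EXPA7 and EXPA18, the only root markers with a probe set of the 6 listed, summed to between 5.73 and 44.5 units.

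XTH18 and XTH19 were brightest in cotyledons and dim in cauline and senescing leaves, in Col-0 leaf 4 at 1 cm and in gl1T leaf 12, while XTH32 was bright in nearly every group and peaked in the petiole. XTH18 signal averaged 236 ± 21.6 in cotyledons (SD, n = 3 in every group), 134 ± 14.3 in rosette leaf 2 and 118 ± 16.2 in leaves 1 and 2. At the low end it averaged 6.10 ± 1.68 in Col-0 leaf 4 at 1 cm, 5.50 ± 3.64 in gl1T leaf 12, 4.17 ± 2.18 in cauline leaves and 1.41 ± 0.888 in senescing leaves. All 3 arrays exceeded the 40th percentile in 12 of the 20 groups and none did in 6. When the 20 groups were ordered by XTH18 signal, the arrays of 15 of the 19 neighbouring pairs overlapped. The order is therefore loose within the bright groups below the cotyledons and within the dim groups.

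XTH19 followed a similar order with a wider dim range. Its signal averaged 161 ± 4.85 in cotyledons, 117 ± 4.68 in rosette leaf 2, 71.3 ± 5.25 in the distal blade of leaf 7 and 55.8 ± 6.07 in rosette leaf 4, and the arrays of these 4 groups did not overlap. From rosette leaf 8 (47.6 ± 3.03) over the proximal blade of leaf 7 (45.6 ± 3.79) and rosette leaf 6 (39.3 ± 6.62) to the sucrose-medium leaves (35.8 ± 7.58), neighbours overlapped. In 10 groups no array exceeded its 40th percentile, and among these dim groups, which lie between 11.1 ± 5.0 in leaves 1 and 2 and 1.72 ± 0.783 in gl1T leaf 12, all neighbours overlapped.

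XTH32 stood highest in the petiole of leaf 7 (445 ± 43.9) and in short-day rosette set 87 (409.8 ± 30.6), which overlapped each other, and next in gl1T leaf 12 (324 ± 55.7). Groups from rosette leaf 8 (245 ± 26.2) down to gl1T leaf 4 at 1 cm (174 ± 10.6) formed a run of 10 groups in which neighbours overlapped, except that rosette leaf 12 (236 ± 5.89) lay just above short-day set 90 (222 ± 9.84). The lowest levels were separated from each other: cotyledons at 114 ± 5.30, the distal blade of leaf 7 at 86.3 ± 5.73, rosette leaf 2 at 56.9 ± 8.32, cauline leaves at 37.2 ± 1.58 and senescing leaves at 14.4 ± 4.50. All arrays exceeded the 40th percentile in 19 of 20 groups, and none did in the senescing leaves.

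**Figure D1:**
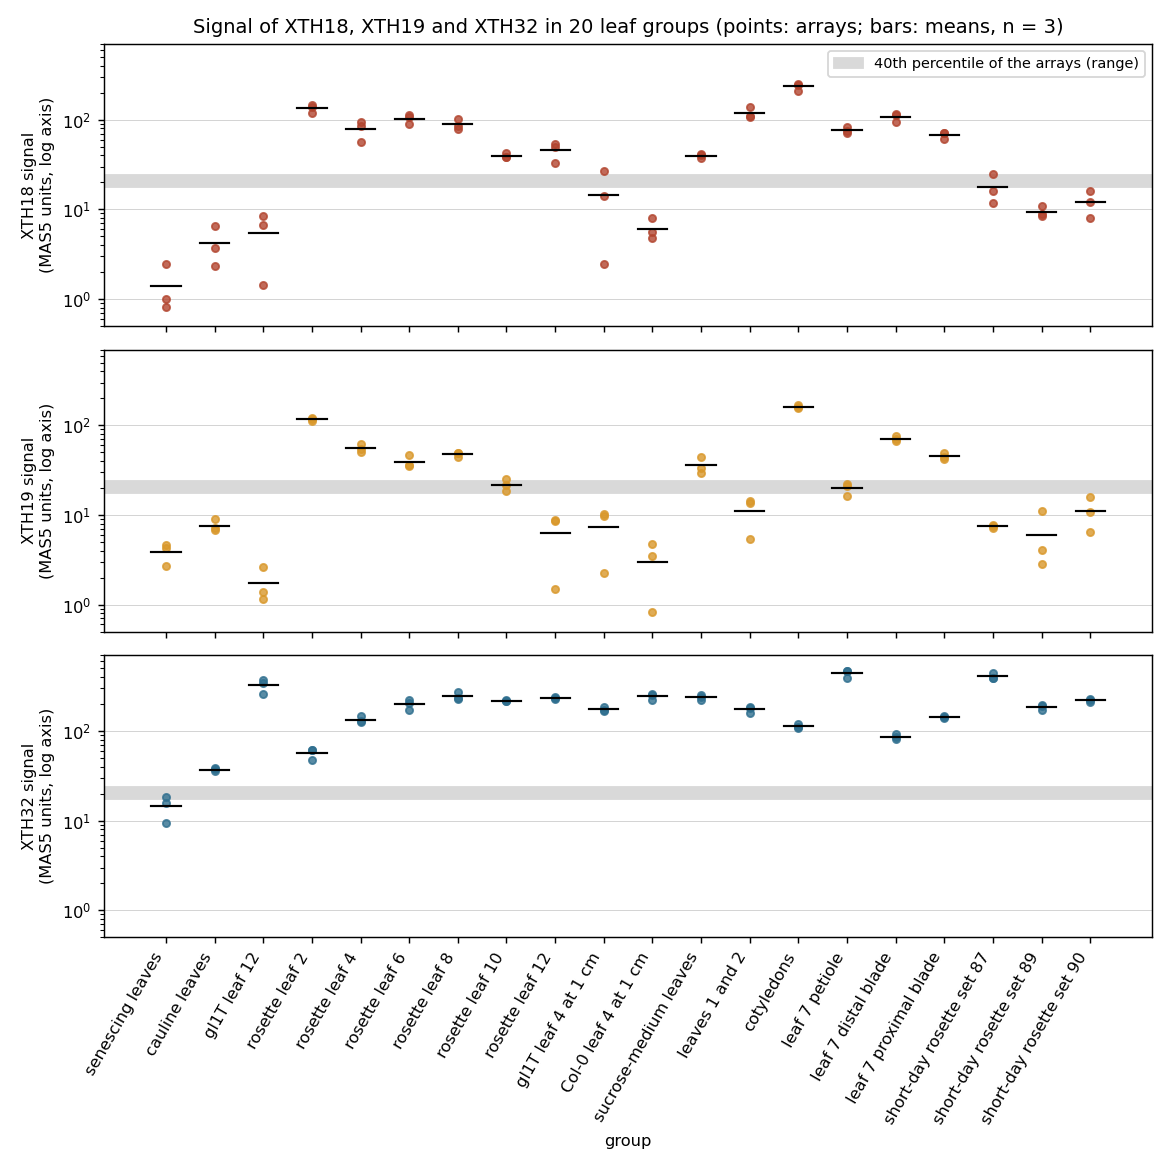
Signal of XTH18, XTH19 and XTH32 (MAS5 units, log axis) on each array (points) with group means (bars, n = 3) in 20 leaf groups, and the range of the arrays' 40th percentile in grey. XTH18 and XTH19 sit below the grey band in senescing and cauline leaves, in gl1T leaf 12 and in Col-0 leaf 4 at 1 cm, whereas XTH32 has a mean below it in senescing leaves alone.

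Along the rosette the 3 genes split: XTH18 and XTH19 fell and XTH32 rose towards the youngest leaf. XTH18 signal was 139, 146 and 118 in leaf 2, 56.6, 94.3 and 85.2 in leaf 4, and 106, 88.7 and 113 in leaf 6. In leaf 8 it was 78.6, 101 and 85.8, in leaf 10 it was 42.1, 37.9 and 38.6, and in leaf 12 it was 33.2, 53.7 and 49.4. Leaves 4, 6 and 8 overlapped, leaves 10 and 12 overlapped, and leaves 10 and 12 lay below leaves 2 to 8 on every array.

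XTH19, the paralog next to it, was 119, 112 and 121 in leaf 2, 54.9, 62.2 and 50.2 in leaf 4, and 47.0, 35.8 and 35.2 in leaf 6. It was 44.1, 49.3 and 49.3 in leaf 8, 18.3, 21.6 and 25.4 in leaf 10, and 8.64, 1.48 and 8.71 in leaf 12, so that leaf 2 stood above and leaf 12 below all other positions. XTH32, the hydrolase-branch enzyme, was 62.3, 47.3 and 61.0 in leaf 2, 149, 125 and 129 in leaf 4, and 223, 174 and 208 in leaf 6. From there it levelled off, with 232, 227 and 275 in leaf 8, 219.6, 219 and 217 in leaf 10, and 242, 230.2 and 237 in leaf 12.

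The linear contrast over leaf number, given as fitted leaf 12 minus fitted leaf 2, was -1.45 ± 0.21 for XTH18 (limma adjusted p = 1.43e-08) and -2.87 ± 0.19 for XTH19 (adjusted p = 1.34e-19). These are 2 of 3 genes that fell, where 11.4% of all tested probe sets fell. XTH32 rose by 1.73 ± 0.093 (adjusted p = 3.07e-23), where 11.6% of all tested probe sets rose. Much of its span came from the oldest leaf: over leaves 4 to 12 alone, a contrast chosen after the data had been seen, it was 0.85, short of the threshold of 1.

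Steps between neighbouring leaves were compared next. XTH32 rose between leaf 4 and leaf 2 (1.16 ± 0.11, adjusted p = 1.32e-12), 1 of 3 genes where 1.37% of probe sets rose, and the next step, leaf 6 over leaf 4, was 0.56 ± 0.11 (adjusted p = 0.000199). In leaf 4 relative to leaf 2, XTH19 stood at -0.995 ± 0.22 (adjusted p = 0.000409), so close to the fold threshold that it passed under several alternatives, such as -1.06 with a pseudocount of 1 and -1.04 with array weights. XTH18 stood at -0.75 ± 0.24 there (adjusted p = 0.0156). Neither leaf 6 over leaf 4 nor leaf 8 over leaf 6 gave a call for the 3 genes, where 0.493% and 0.468% of probe sets were called in either direction. XTH18 fell in leaf 10 relative to leaf 8 (-1.05 ± 0.24, adjusted p = 0.00175), 1 of 3 genes where 0.272% of probe sets fell. In the same step XTH19 stood at -0.95 ± 0.22 (adjusted p = 0.00194), just short of the fold threshold. XTH19 fell again in leaf 12 relative to leaf 10 (-1.22 ± 0.22, adjusted p = 2.41e-05), 1 of 3 genes where 0.924% of probe sets fell, while XTH18 stood at 0.15 ± 0.24 there. With a pseudocount 4 times larger all 3 called steps fell short of the threshold, at 0.97 for XTH32, -0.81 for XTH18 and -0.59 for XTH19. Without the second array of leaf 8 the XTH18 step was -0.95, and without the second array of leaf 12 the XTH19 step was -0.91. Leaf number and leaf size run together along the rosette.

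**Figure D2:**
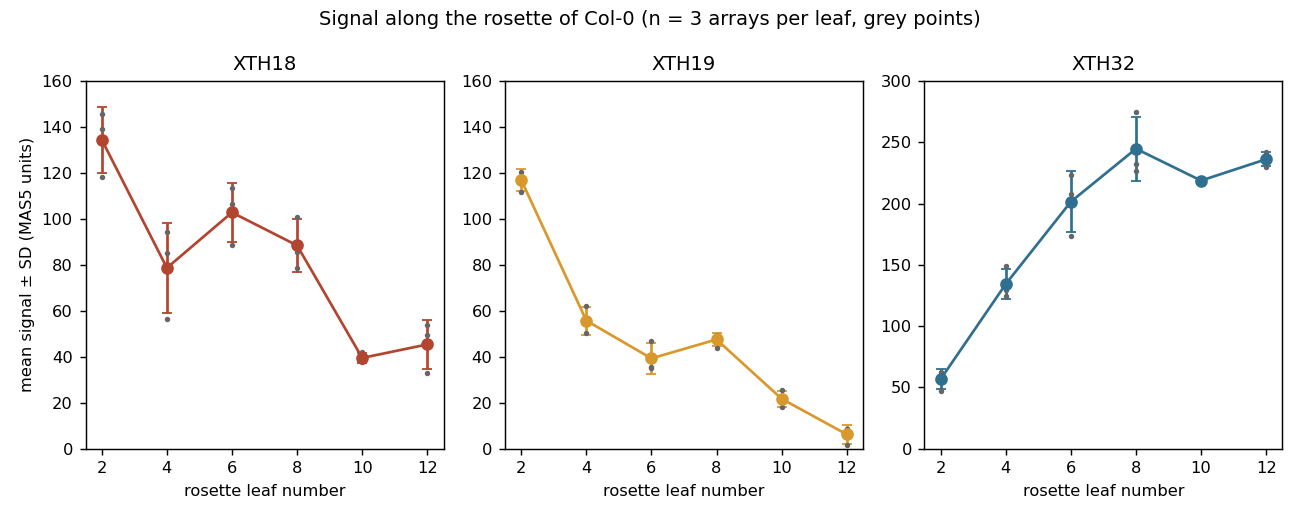
Signal (MAS5 units, linear axes with a scale of their own for each gene) of XTH18, XTH19 and XTH32 against rosette leaf number in Col-0, as means ± SD with the 3 arrays of each leaf as grey points. XTH18 and XTH19 were highest in leaf 2 and low in leaves 10 and 12, and XTH32 was lowest in leaf 2 and level between leaves 8 and 12.

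In senescing leaves XTH18 and XTH32 were at their lowest, and XTH19 was dim. XTH18 signal was 2.43, 0.81 and 0.99 in senescing leaves, against 139, 146 and 118 in rosette leaf 2, the oldest leaf sampled. XTH19 signal was 4.63, 2.68 and 4.26 in senescing leaves, against 119, 112 and 121 in leaf 2, and XTH32 signal 15.6, 18.3 and 9.49 in senescing leaves, against 62.3, 47.3 and 61.0 in leaf 2. No senescing array overlapped a leaf 2 array for any of these genes, and all senescing values lay below the 40th percentile of their array.

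Against leaf 2, XTH18 fell by 4.22 ± 0.24 on the log2 scale (adjusted p = 7.36e-22), XTH19 fell by 3.63 ± 0.22 (adjusted p = 1.20e-20) and XTH32 fell by 1.63 ± 0.11 (adjusted p = 4.43e-19). All 3 genes fell here, where 12.3% of tested probe sets fell. Against the mean of rosette leaves 2 to 12 the differences were -3.42 ± 0.19 for XTH18, -2.0997 ± 0.17 for XTH19 (adjusted p = 2.61e-16) and -3.08 ± 0.084 for XTH32 (adjusted p = 6.17e-37), again 3 of 3, where 16.7% fell. Against leaf 12 alone, where XTH19 was itself dim, its difference was -0.25 (adjusted p = 0.292). Mesophyll genes fell against the rosette mean in 5 of 6 measured cases in the same senescing leaves, where 16.7% of probe sets fell. The part of this in the XTH values was not tested.

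Cauline leaves resembled senescing leaves in XTH18 and XTH19 and stood above them in XTH32. XTH18 signal was 2.30, 6.56 and 3.65 in cauline leaves and XTH19 signal 6.86, 7.11 and 8.93, both below every array of rosette leaves 2 to 10. XTH32 signal was 38.3, 38.0 and 35.4 in cauline leaves, below all arrays of rosette leaves 2 to 12 and above all senescing arrays. Against the mean of the rosette leaves, XTH18 fell by 2.99 ± 0.19, XTH19 fell by 1.64 ± 0.17 (adjusted p = 2.87e-12) and XTH32 fell by 1.98 ± 0.084 (adjusted p = 1.64e-27), 3 of 3 genes, where 7.55% of probe sets fell.

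The partner leaf mattered for some of these calls. Against rosette leaf 12 alone XTH19 in cauline leaves stood at 0.21 (adjusted p = 0.399), and against rosette leaf 2 alone XTH32 stood at -0.53 (adjusted p = 5.68e-05), below the fold threshold. The rosette arrays served as controls for both senescing and cauline leaves, so these comparisons share them. Compared directly, senescing leaves were lower than cauline leaves in XTH32 (-1.10 ± 0.11, adjusted p = 1.02e-12), 1 of 3 genes, where 9.99% of probe sets fell. XTH18 (-0.44 ± 0.24, adjusted p = 0.116) and XTH19 (-0.46 ± 0.22, adjusted p = 0.0676) were not called there, at signals too dim to order. With a pseudocount 4 times larger the XTH32 difference was -0.67, with quantile normalization -0.94 and without the third senescing array -0.91, each short of the threshold.

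Early leaves showed where XTH18 and XTH19 part. In leaves 1 and 2 XTH18 signal was 111, 137 and 107, against 249.8, 211 and 247 in cotyledons. XTH19 signal was 13.5, 5.35 and 14.5 in leaves 1 and 2, against 167, 158 and 159 in cotyledons. Neither gene's groups overlapped, but XTH18 remained bright in leaves 1 and 2 whereas XTH19 was below the 40th percentile on all 3 arrays.

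XTH19 fell by 3.33 ± 0.22 in leaves 1 and 2 relative to cotyledons (adjusted p = 1.05e-18), 1 of 3 genes, where 6.99% of probe sets fell. XTH18 stood at -0.96 ± 0.24 (adjusted p = 0.000697), and leaving out single arrays moved it between -1.07 and -0.90, across the fold threshold of 1. XTH32 signal was 157, 182 and 187 in leaves 1 and 2, against 112, 109 and 119 in cotyledons, a difference of 0.60 ± 0.11 (adjusted p = 6.22e-06) that did not reach the fold threshold.

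Rosette leaf 2, harvested with the full rosette, was then set against leaves 1 and 2. XTH19 rose by 2.88 ± 0.22 (adjusted p = 1.04e-16), 1 of 3 genes, where 12.6% of probe sets rose. XTH32 fell by 1.53 ± 0.11 (adjusted p = 5.05e-18), with 62.3, 47.3 and 61.0 in rosette leaf 2 and 157, 182 and 187 in leaves 1 and 2, where 9.98% of probe sets fell. For XTH18 the 139, 146 and 118 of rosette leaf 2 overlapped the 111, 137 and 107 of leaves 1 and 2, with a difference of 0.18 ± 0.24 (adjusted p = 0.528).

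Leaf 4 was sampled both within the rosette series and at a length of 1 cm. XTH18 signal was 56.6, 94.3 and 85.2 in rosette leaf 4, against 4.72, 5.59 and 7.97 in Col-0 leaf 4 at 1 cm. XTH19 signal was 54.9, 62.2 and 50.2 in rosette leaf 4, against 4.79, 3.46 and 0.83 in leaf 4 at 1 cm. Both paralogs were thus dim in the small leaf and bright in the later harvest. XTH18 rose by 2.77 ± 0.24 (adjusted p = 8.23e-15) and XTH19 by 2.78 ± 0.22 (adjusted p = 3.79e-16), 2 of 3 genes, where 12.9% of probe sets rose. XTH32 ran the other way, with 149, 125 and 129 in rosette leaf 4 and 221, 258 and 252 in leaf 4 at 1 cm, a difference of -0.83 ± 0.11 (adjusted p = 2.71e-09) below the fold threshold.

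Rosette leaf 12 and leaf 4 at 1 cm share a labelled length of about 1 cm. XTH18 signal was 33.2, 53.7 and 49.4 in leaf 12, against 4.72, 5.59 and 7.97 in the 1 cm leaf 4, so that it rose by 2.06 ± 0.24 (adjusted p = 5.75e-10), 1 of 3 genes, where 3.36% of probe sets rose. XTH19 stood at 0.40 ± 0.22 (adjusted p = 0.171), with overlapping arrays, and XTH32 at -0.04 ± 0.11 (adjusted p = 0.819), with 242, 230.2 and 237 in leaf 12 and 221, 258 and 252 in the 1 cm leaf 4. Touch and wound genes differed in both comparisons with Col-0 leaf 4 at 1 cm. They were picked with their values in view, so their counts are a description alone. In rosette leaf 12, 5 of 5 measured members were higher, where 3.36% of probe sets rose. In rosette leaf 4 it was 4 of 5, where 12.9% of probe sets rose. Their summed signal was 1308 to 1429 units in rosette leaf 12 and 1107 to 1116 in rosette leaf 4, against 196 to 219 in the 1 cm leaf 4, whose labels also note soil. Their part in the XTH18 and XTH19 values was not tested.

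Within leaf 7, XTH32 was higher and XTH19 lower in the petiole than in the blade. XTH32 signal was 395, 467 and 474 in the petiole, against 80.9, 92.3 and 85.7 in the distal blade and 141, 144 and 147 in the proximal blade. XTH19 signal was 21.3, 16.2 and 22.1 in the petiole, against 77.0, 66.6 and 70.4 in the distal and 42.3, 49.7 and 44.7 in the proximal blade. In both genes the petiole arrays lay apart from all blade arrays, above them for XTH32 and below them for XTH19.

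XTH32 rose in the petiole by 1.93 ± 0.095 relative to the mean of the blade parts (adjusted p = 8.86e-24), 1 of 3 genes, where 4.11% of probe sets rose. XTH19 fell by 1.29 ± 0.19 (adjusted p = 1.19e-07), 1 of 3 genes, where 2.82% fell, and stood at -0.89 with a pseudocount 4 times larger. XTH18 signal was 70.8, 82.2 and 74.4 in the petiole, against 113, 94.3 and 115 in the distal and 71.2, 60.9 and 71.3 in the proximal blade, a difference of -0.16 ± 0.21 (adjusted p = 0.545). Between the blade parts, 0 of 3 genes passed both thresholds, where 0.62% of probe sets were called in either direction. XTH18 (0.62 ± 0.24, adjusted p = 0.0743) and XTH19 (0.58 ± 0.22, adjusted p = 0.0664) were higher in the distal arrays, and XTH32 differed by -0.70 ± 0.11 (adjusted p = 3.44e-06). In all 3 genes the distal and proximal arrays did not overlap.

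In the line gl1T, XTH18 was lower than in Col-0 in leaf 12, whereas in leaf 4 at 1 cm it was dim in Col-0 already. XTH18 signal was 1.42, 6.62 and 8.45 in gl1T leaf 12, against 33.2, 53.7 and 49.4 in Col-0 leaf 12, with no overlap. It fell by 2.18 ± 0.24 (adjusted p = 1.60e-10), 1 of 3 genes, where 2.18% of probe sets fell. With a pseudocount 4 times larger this difference was -1.21. The part of leaf size in it was not tested, since gl1T leaf 12 has no labelled length.

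The other genes moved less in leaf 12. XTH19 signal was 2.62, 1.39 and 1.16 in gl1T leaf 12, against 8.64, 1.48 and 8.71 in Col-0 leaf 12, a difference of -0.60 ± 0.22 (adjusted p = 0.0379) between dim values. XTH32 signal was 261, 344 and 367 in gl1T leaf 12, against 242, 230.2 and 237 in Col-0 leaf 12, a difference of 0.43 ± 0.11 (adjusted p = 0.00173). The first gl1T leaf 12 array had a GAPDH control ratio, 3' probes over 5' probes, of 3.23, against 1.34 and 1.39 on the other gl1T leaf 12 arrays and 1.31 to 1.53 in Col-0 leaf 12. Without it the XTH18 difference was -1.89.

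In leaf 4 at 1 cm 0 of 3 genes were called, where 3.95% of probe sets were called in either direction. XTH18 signal was 14.0, 27.1 and 2.43 in gl1T, against 4.72, 5.59 and 7.97 in Col-0, and the arrays overlapped. All of these Col-0 values lay below the 40th percentile, so a fall of XTH18 in gl1T could hardly have been seen. The difference of 0.56 ± 0.24 (adjusted p = 0.0723) ranged between 0.11 and 1.09 when single arrays were left out, and passed both thresholds without the third gl1T array (adjusted p = 8.08e-05). XTH19 signal was 2.27, 9.63 and 10.2 in gl1T, against 4.79, 3.46 and 0.83 in Col-0 (0.52 ± 0.22, adjusted p = 0.0659). XTH32 signal was 166, 186 and 172 in gl1T, against 221, 258 and 252 in Col-0 (-0.47 ± 0.11, adjusted p = 0.000622), with no overlap.

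The gl1T effect itself differed between leaf 12 and leaf 4. This interaction was -2.74 ± 0.34 for XTH18 (adjusted p = 3.56e-09) and -1.12 ± 0.32 for XTH19 (adjusted p = 0.00441), 2 of 3 genes, where 5.33% of probe sets were lower. For XTH32 it was 0.90 ± 0.16 (adjusted p = 5.38e-06), below the fold threshold. XTH18 averaged 45.4 in Col-0 leaf 12 but 6.10 in Col-0 leaf 4 at 1 cm, which left little room for a fall in leaf 4. The XTH19 value rests on dim arrays, since it was -0.43 with a pseudocount 4 times larger and had an adjusted p of 0.0628 when only the compared groups were fitted, and it lay between -1.44 and -0.94 when single arrays were left out, 5 of which brought it below the fold threshold. Touch and wound genes, picked with their values in view and given as a description alone, also differed between these samples. They rose in gl1T leaf 4 in 5 of 5 cases, where 3.95% of probe sets were called in either direction. They fell in gl1T leaf 12 in 4 of 5, where 2.18% of probe sets fell. Their summed signal was 231 to 266 units in gl1T leaf 12, against 1308 to 1429 in Col-0 leaf 12, and 1556 to 1598 in gl1T leaf 4 at 1 cm, against 196 to 219 in Col-0 leaf 4 at 1 cm. Their part in the XTH18 values was not tested.

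**Figure D3:**
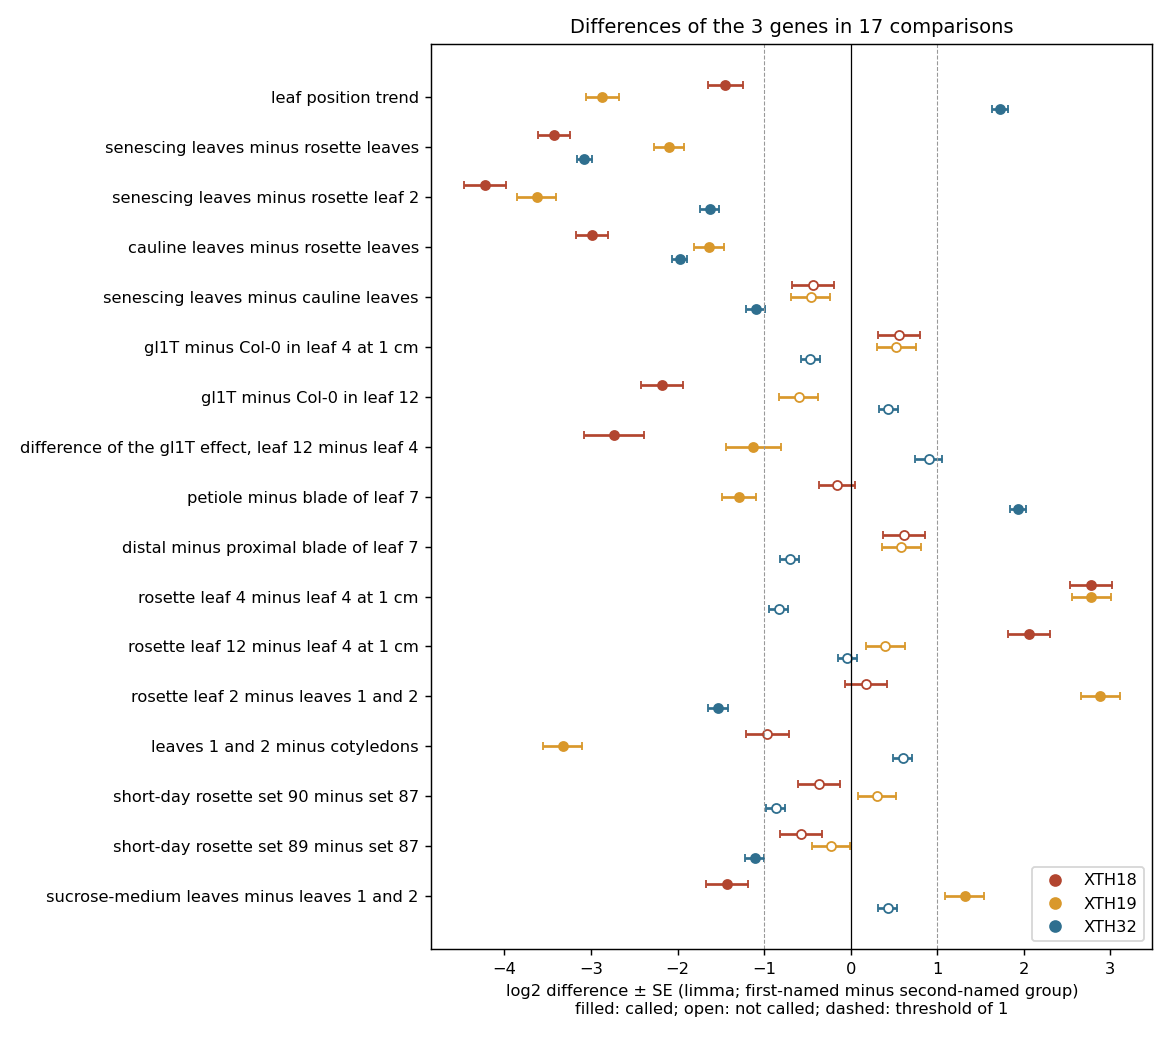
log2 differences ± SE from limma for XTH18, XTH19 and XTH32 in 17 comparisons, first-named minus second-named group, with filled points where a gene was called and dashed lines at the threshold of 1. All 3 genes lie left of 0 for senescing and cauline leaves, and XTH32 lies opposite to XTH19 for the leaf position trend (1.73 against -2.87) and the petiole (1.93 against -1.29).

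Among the short-day rosettes XTH32 was highest in set 87, and XTH18 and XTH19 were dim in nearly all arrays. XTH32 signal was 445, 395 and 389 in set 87, 196, 192 and 172 in set 89, and 225, 211 and 229 in set 90. Set 87 thus stood above both other sets, without overlap. XTH32 fell in set 89 relative to set 87 by 1.11 ± 0.11 (adjusted p = 4.24e-12), 1 of 3 genes, where 2.41% of probe sets fell. In set 90 the difference from set 87 was -0.87 ± 0.11 (adjusted p = 2.60e-09), and 0 of 3 genes were called, where 6.01% of probe sets were called in either direction.

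XTH18 signal was 24.8, 11.6 and 16.2 in set 87, 8.44, 8.94 and 10.8 in set 89, and 8.00, 12.0 and 16.1 in set 90. XTH19 signal was 7.18, 7.54 and 7.67 in set 87, 2.84, 4.03 and 10.998 in set 89, and 15.97, 6.44 and 10.8 in set 90. Only 1 of these 18 values, an XTH18 value of set 87, exceeded the 40th percentile of its array. The labels tell the sets apart by number alone, and rosettes hold leaves of all sizes, so their levels are not comparable with those of a single leaf position.

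Sucrose-medium leaves moved the paralogs in opposite directions relative to leaves 1 and 2 from soil. XTH18 signal was 41.7, 37.0 and 40.5 in sucrose-medium leaves, against 111, 137 and 107 in leaves 1 and 2. XTH19 signal was 29.5, 33.7 and 44.2 in sucrose-medium leaves, against 13.5, 5.35 and 14.5 in leaves 1 and 2. Neither pair of groups overlapped.

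XTH18 fell by 1.43 ± 0.24 (adjusted p = 2.03e-06), 1 of 3 genes, where 2.38% of probe sets fell, and XTH19 rose by 1.31 ± 0.22 (adjusted p = 2.09e-06), 1 of 3 genes, where 4.83% rose. With a pseudocount 4 times larger the XTH19 difference was 0.76. XTH32 signal was 222, 243 and 250.1 in sucrose-medium leaves, against 157, 182 and 187 in leaves 1 and 2, a difference of 0.43 ± 0.11 (adjusted p = 0.00101). Substrate, day length, temperature and leaf position differ together here and cannot be told apart. Touch and wound genes were lower in sucrose-medium leaves in 4 of 5 cases, where 2.38% of probe sets fell. These genes were picked with their values in view, so the count is a description alone. Their summed signal was 411 to 458 units in sucrose-medium leaves, against 1480 to 1526 in leaves 1 and 2.

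Across the 20 group means, XTH18 and XTH19 correlated with a Pearson r of 0.85 and a Spearman rho of 0.83. XTH32 correlated with XTH18 at r = 0.13 and with XTH19 at r = -0.15 over all groups. Without senescing and cauline leaves, in which all 3 genes were low, the 18 remaining groups gave r = -0.52 for XTH18 and XTH32 and r = -0.68 for XTH19 and XTH32. These are descriptions over groups that share arrays between the genes, with no test.

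The difference between the paralog probe sets varied among groups, which is given as a description with no test. The log2 value of XTH18 less that of XTH19 on the same array was 2.89 ± 0.65 in leaves 1 and 2 (SD, n = 3), 2.095 ± 0.80 in rosette leaf 12 and 1.66 ± 0.28 in the petiole. It was 0.53 ± 0.11 in cotyledons, 0.19 ± 0.20 in rosette leaf 2 and 0.14 ± 0.27 in sucrose-medium leaves. Over the 18 rosette arrays the fitted gap was larger in leaf 12 than in leaf 2 by 1.42. This and the differences that follow were chosen because XTH18 and XTH19 had been seen to differ there.

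In the petiole the gap was 1.13 larger than in the blade. For leaves 1 and 2 relative to cotyledons it was larger by 2.36, and for rosette leaf 12 relative to the 1 cm leaf 4 by 1.66. For sucrose-medium leaves relative to leaves 1 and 2 it differed by -2.75 and for gl1T relative to Col-0 leaf 12 by -1.58. Dim signal limits these gaps, since the pseudocount narrows the gap where both genes are dim. Both were below the 40th percentile on all arrays of gl1T leaf 12 and of Col-0 leaf 4 at 1 cm. XTH19 alone was so in leaves 1 and 2 and in rosette leaf 12. How much of either signal came from RNA of the other paralog was not tested.

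**Figure D4:**
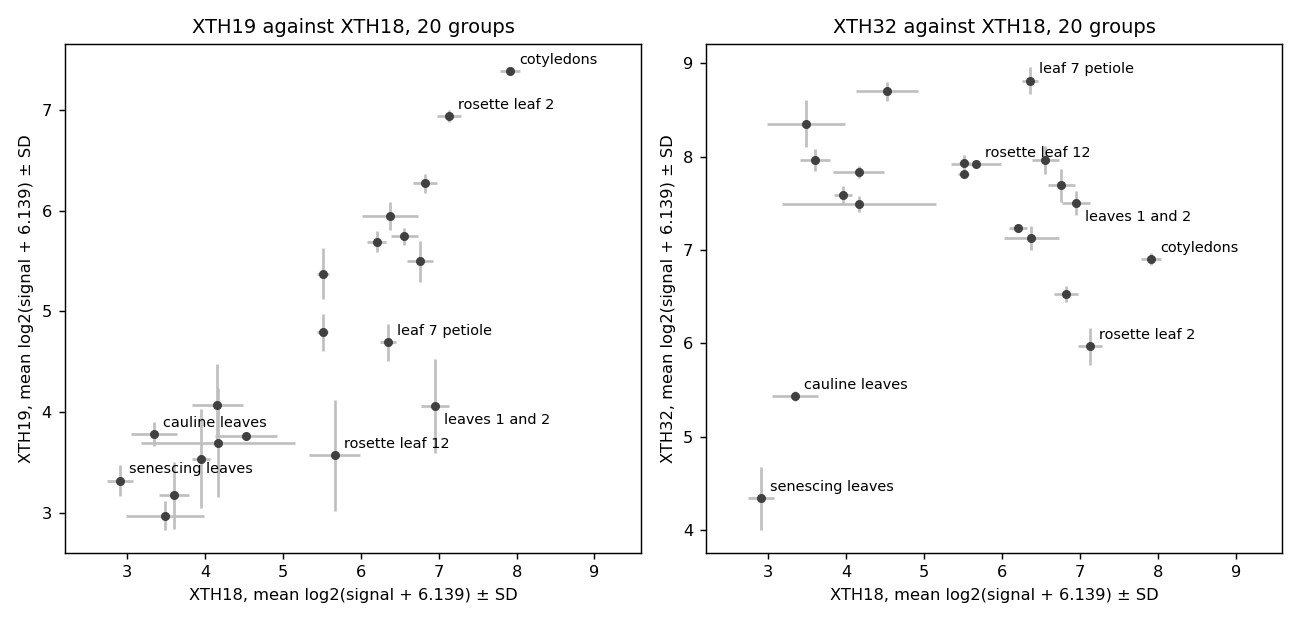
Mean log2(signal + 6.139) ± SD (n = 3) of XTH19 (left) and XTH32 (right) against that of XTH18 in 20 groups, with some groups named. On the left, leaves 1 and 2, rosette leaf 12 and the petiole lie below the other groups of like XTH18 level. On the right, senescing and cauline leaves are low in both genes, and the other groups run downwards with r = -0.52.

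Of the 33 XTH genes listed, 10 had a probe set annotated to them alone and 7 of these were tested, the 3 described and XTH16, XTH27, XTH29 and XTH33. XTH20, a close relative of XTH18 and XTH19, exceeded the 40th percentile on 0 arrays, with group means of 5.89 to 13.8 units, and so did XTH21 and XTH26. The tested relatives fell on both sides of the split along the rosette. XTH33, an enzyme with a predicted membrane anchor, fell towards leaf 12 (-3.002 ± 0.21, adjusted p = 2.47e-18), and XTH27, known from leaf vein development, fell by 1.29 ± 0.056 (adjusted p = 3.29e-27). XTH16 rose by 2.46 ± 0.094 (adjusted p = 1.07e-29), as XTH32 did. XTH29 stood at -0.06 ± 0.27, but 0 of its arrays exceeded the 40th percentile in these leaves, so a change could hardly have been seen. Of the 4 relatives 2 fell and 1 rose, where 11.4% of all tested probe sets fell and 11.6% rose.

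In senescing leaves relative to the rosette mean, XTH16 fell by 3.38 ± 0.085 (adjusted p = 1.05e-38) and XTH33 fell by 2.89 ± 0.19 (adjusted p = 1.19e-19). XTH29 averaged 34.7 units in senescing leaves and exceeded the 40th percentile on arrays of that group alone. It was therefore tested only by way of the group in which it was bright, and its difference of 1.63 ± 0.25 is no support for a rise. Of the 4 relatives 2 fell, where 16.7% of all tested probe sets fell. The median difference of the 4 was -1.86, against a median of 0.09 over all tested probe sets. In cauline leaves 2 of 4 fell, XTH16 (-2.52 ± 0.085) and XTH33 (-2.39 ± 0.19), where 7.55% of all tested probe sets fell, with a median of -1.28 against 0.05 over all. XTH33 also fell in gl1T leaf 12 relative to Col-0 (-1.05 ± 0.25, adjusted p = 0.000945) and in the petiole relative to the blade (-1.24 ± 0.22, adjusted p = 3.27e-06). It was 1 of 4 relatives in each, where 2.18% and 2.82% of probe sets fell.

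XTH33 and XTH16 were also called where leaf 2 and leaves 1 and 2 were compared: XTH33 rose in rosette leaf 2 by 3.04 ± 0.25 (adjusted p = 1.19e-15) and XTH16 fell by 2.00 ± 0.11 (adjusted p = 1.51e-22). Each is 1 of 4 relatives, where 12.6% of probe sets rose and 9.98% fell. Between leaves 1 and 2 and cotyledons XTH33 stood at -0.14, where XTH19 fell by 3.33. XTH27 fell in short-day set 89 relative to set 87 by 1.02 ± 0.067 (adjusted p = 1.63e-18), as XTH32 did. That is 1 of 4 relatives, where 2.41% of probe sets fell. In set 90 XTH27 fell by 1.16 ± 0.067 relative to set 87 (adjusted p = 3.06e-21), where XTH32 was not called. That is again 1 of 4, where 6.01% of probe sets were called in either direction.

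**Figure D5:**
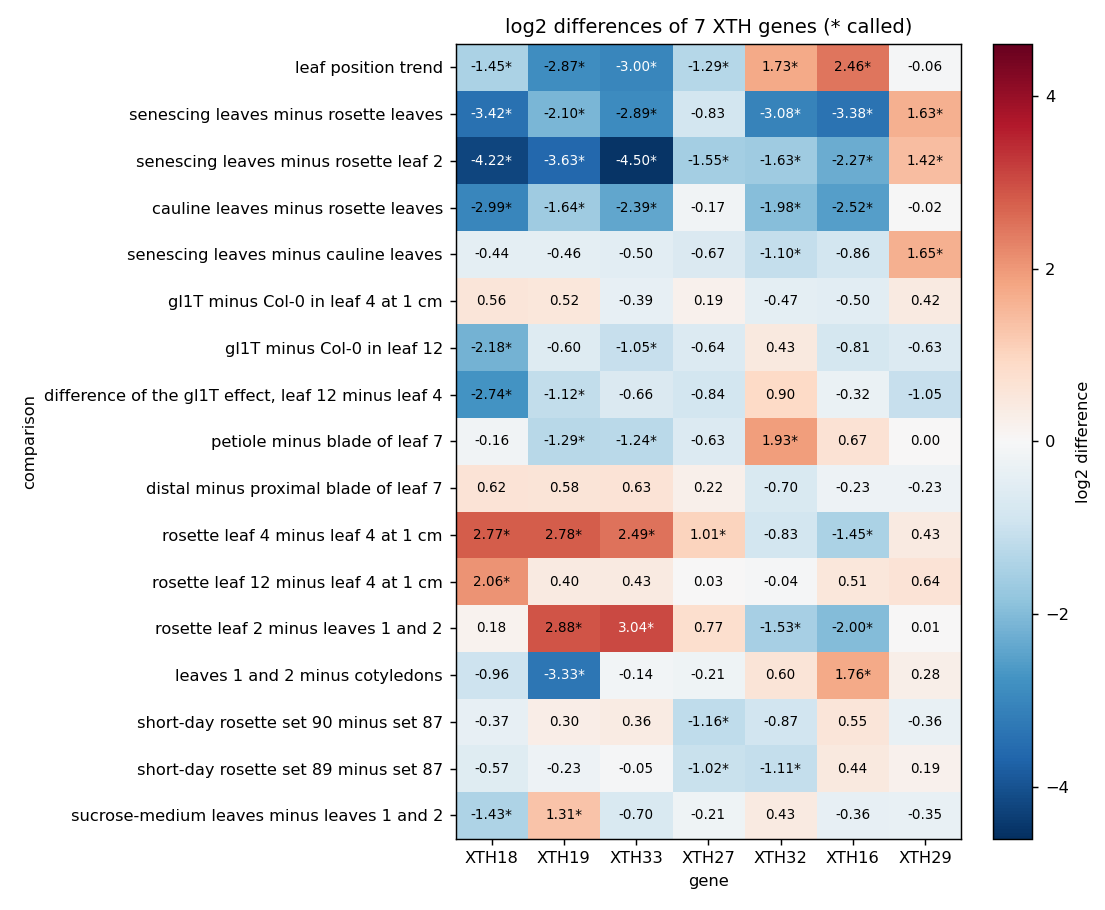
log2 differences from limma of the 7 tested XTH genes (columns) in 17 comparisons (rows), coloured from blue (lower) to red (higher), with an asterisk where the gene was called. XTH33 and XTH27 share the negative leaf position trend of XTH18 and XTH19 (-3.002 and -1.29), and XTH16 the positive trend of XTH32 (2.46).

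Synthesis of the substrate was covered by 5 of 15 listed genes, all of the CSLC family, whose members make the glucan backbone of xyloglucan. Along the rosette 2 of 5 rose, CSLC5 (1.07 ± 0.084, adjusted p = 9.99e-17) and CSLC8 (1.10 ± 0.10, adjusted p = 8.19e-14), where 11.6% of all tested probe sets rose, with a list median of 0.82 against 0.01 over all. CSLC4 lay on the other side, at -0.75 ± 0.062 (adjusted p = 8.11e-16), short of the fold threshold. In senescing leaves relative to the rosette mean 3 of 5 fell, CSLC4 (-3.26 ± 0.056), CSLC5 (-1.92 ± 0.076) and CSLC8 (-1.35 ± 0.094), where 16.7% of all tested probe sets fell, with a median of -1.35. In cauline leaves only CSLC4 of the 5 was called (-1.70 ± 0.056, adjusted p = 2.29e-32), where 7.55% of all tested probe sets fell. CSLC4 also rose in rosette leaf 4 relative to leaf 4 at 1 cm (1.23 ± 0.074, adjusted p = 3.67e-21), as XTH18 and XTH19 did. That is 1 of 5, where 12.9% of all tested probe sets rose. The rest of the list lay on the lower side, between -0.78 for CSLC5 and -0.34 for CSLC12, with a list median of -0.36.

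Expansins loosen walls without cutting xyloglucan. Their list, which also holds the expansin-like EXLA and EXLB proteins, had 11 tested members of 21. Towards leaf 12, 3 of 11 fell, EXLA1 (-2.02 ± 0.071), EXLA3 (-1.37 ± 0.18) and EXPA8 (-1.15 ± 0.11), and 0 rose, where 11.4% of all tested probe sets fell and 11.6% rose. The list median was 0.62, on the higher side. In the petiole relative to the blade EXPB3 rose (1.66 ± 0.092, adjusted p = 7.77e-22), as XTH32 did, and EXLA1 fell (-1.13 ± 0.072, adjusted p = 3.01e-19), as XTH19 did. These are 1 of 11 rising, where 4.11% of all tested probe sets rose, and 1 of 11 falling, where 2.82% fell. The other 9 were not called.

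Among the 8617 other tested probe sets annotated to a single gene, those most like each XTH gene were found by Pearson r over the 20 group means, as a description with no p. For XTH18 they were AT3G55840 (r = 0.917), AT1G66180 (0.916), AT5G28630 (0.910), AT3G59080 (0.905) and AT2G27080 (0.904). For XTH19 they were AT2G01300 (r = 0.903), AT1G66180 (0.901), AT2G25200 (0.893), AT3G46880 (0.889) and SCPL34 (AT5G23210, 0.881), a serine carboxypeptidase-like protein. AT1G66180 thus appeared in both lists. The r between XTH18 and XTH19 (0.85) was below that of every gene named here, but these were picked as the highest of 8617. It therefore does not show that the paralogs are unlike.

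The genes most like XTH32 were RALFL34 (AT5G67070, r = 0.950), a signalling peptide of the RALF family, AT2G26730 (0.943), WLIM2a (AT2G39900, 0.942), an actin-binding LIM protein, AT3G17120 (0.942) and AT5G13140 (0.939). Without the senescing leaves RALFL34 still ranked first for XTH32, with r = 0.922. By Spearman's rho AT3G17120 was at rank 1 and WLIM2a at rank 112, so the order depends on the measure. Of the 5 measured touch and wound genes, CML38, a calmodulin-like protein, was the nearest to XTH18 over the 20 groups (r = 0.75, rho = 0.87), and STZ, a zinc finger factor, followed (r = 0.59).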

How the data were processed

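Leaf RNA of 60 samples was hybridised to single-colour arrays. Each deposited value is the intensity of a probe set as linear signal, made by the authors with MAS5 per the submitters' processing notes. No version or setting of it is given in the sources used here. After trimming 2% at each end every array averaged 100, so nothing was normalized again, and global shifts in RNA content are hidden.

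The 64 control probe sets of 22810 were removed. The pseudocount of 6.139, added before log2, is the median of the arrays' 20th percentiles. A probe set was tested if some group had all of its arrays above their own 40th percentile, which left 15808. These were fitted together by group with limma 3.58.1 in R 4.3.3 (empirical Bayes with intensity trend, 40 residual degrees of freedom), and p-values were adjusted over all of them in each comparison. Groups came from the sample titles. The first array of set 14, whose tissue field reads leaf 4, therefore stayed with rosette leaf 6. It correlated with that group at r of 0.984 or more and with rosette leaf 4 at 0.982 or less. The array annotation names 1 gene for 13513 probe sets and more than 1 for 503, and 8730 are not listed in it. Loci are those of RefSeq TAIR10.1.

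The genes and gene lists were chosen with earlier results of these data known. Named are the 3 genes, every XTH gene tested, called members of the other lists and, for likeness, the 5 highest r per gene. Other genes, such as EXPB3 and those of the touch list, were picked with their values in view. Alternatives covered pseudocount, filter, normalization, array weights, samples fitted, partner leaf and single arrays left out. On data simulated for gl1T and Col-0 in leaf 12 with 15808 probe sets, 100 of 100 differences of 1.5 and 100 of 100 of 2 were recovered. These sizes were added on the log2 scale even where dim signal could not fall so far. The recovery therefore does not describe dim genes. Plots were made with matplotlib 3.10.9 (Python 3.11.15). The number of arrays limits the precision.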

Additional observations from a re-analysis of the deposited data

Results flagged for a closer look

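The interaction term in limma, the gl1T minus Col-0 difference in leaf 12 less that in leaf 4 at 1 cm, had an adjusted p below 0.05 for the 3 genes, which is why these values are listed here. It was -2.74 for XTH18, -1.12 for XTH19 and 0.90 for XTH32, and XTH32 did not reach the fold threshold of 1. The XTH19 call was lost with a pseudocount 4 times larger (-0.43), with only the groups compared (adjusted p = 0.0628) and without any of 5 single arrays. For XTH18, gl1T was lower than Col-0 on 3 of 3 arrays in leaf 12, whereas arrays overlapped in leaf 4. In leaf 4 XTH18 was dim in Col-0 already, so a fall could hardly show there. XTH19 was dim on all 12 arrays of this comparison.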

How the results depend on the processing

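Over 66 results for the 3 genes, 1116 alternative values were computed, of which 1080 kept direction and side of the thresholds, 20 fell below a threshold, 14 passed it and 2 turned. The cause was not tested for any of them. A pseudocount of 1 brought XTH18 in senescing minus cauline leaves to -1.08, XTH19 for gl1T in leaf 4 to 1.02 and in leaf 12 to -1.21, past the thresholds. With one 4 times larger XTH32 in senescing minus cauline leaves was -0.67, and XTH19 was -0.43 for the difference of the gl1T effect, -0.89 for the petiole and 0.76 for sucrose-medium leaves. It moved 17 of 30 called values by over 1.5 times, to 0.379 to 0.938 of their size, and the count of all probe sets called by over 1.5 times in 20 of 22 comparisons. A pseudocount of 1 moved that count so far in 6 of 22. Quantile normalization gave -0.94 for XTH32 in senescing minus cauline leaves. With only the groups compared, XTH19 kept -1.12 for the gl1T difference at an adjusted p of 0.0628. Against rosette leaf 12 alone XTH19 was 0.21 in cauline leaves, turned in sign, and -0.25 in senescing leaves. Against leaf 2 alone XTH32 in cauline leaves was -0.53. The rosette trend of XTH32 without leaf 2, added after the data had been seen, was 0.85. Leaving out single arrays gave 0.11 to 1.09 for XTH18 with gl1T in leaf 4, -1.07 to -0.90 for XTH18 in leaves 1 and 2 minus cotyledons, -1.44 to -0.94 for XTH19 and 0.80 to 1.04 for XTH32 in the difference of the gl1T effect, -1.24 to -0.91 for XTH32 in senescing minus cauline leaves and -0.11 to 0.0019 for XTH32 in leaf 12 minus leaf 4 at 1 cm. Letters A, B and C did not pair arrays, with r of deviations between -0.18 and 0.17 over 551 same-letter pairs, and a replicate block by letter left all 66 results on the same side, with -2.18 for XTH18 with gl1T in leaf 12. Dim signal limits XTH19 most, with 10 of 20 groups below the 40th percentile on every array.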
